A study of Mus musculus with 7 samples.

Results

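The genes described here encode potassium channel subunits and their dedicated accessory subunits in mouse brain. They were taken as every protein-coding gene whose symbol starts with Kcn, goes on with letters and ends in a number, which gave 92 of the 55536 genes in the count table. Whole brains were profiled by total RNA sequencing after depletion of ribosomal RNA, to compare C57BL/6 wild-type mice with littermates heterozygous for R2483H, a substitution in the SRI domain of the histone H3 methyltransferase Setd2 (genotype Setd2SRI/wt). The 7 libraries came from 2 wild-type males, 2 wild-type females, 1 Setd2SRI/wt male and 2 Setd2SRI/wt females, all untreated and all labelled postnatal day 0. The litter of each animal was not given, so p-values measure only the spread between these libraries. Gene counts do not show the substitution, so the genotype labels were not checked.

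Potassium channels let potassium leave or enter cells along its electrochemical gradient, and so set the resting potential, end action potentials and control firing rate. Voltage-gated (Kv) channels are mostly assembled from alpha subunits of one family, while electrically silent subunits of other families modify Kv2 channels. Cytoplasmic beta subunits, KChIP proteins and KCNE proteins alter the gating and traffic of Kv channels. Inward rectifiers (Kir) and tandem-pore-domain (K2P) channels act near the resting potential, in neurons and in the glia that clear potassium from around them, while calcium-activated channels couple firing to intracellular calcium.

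The libraries held 4192021 to 16064644 gene counts, and the channel genes took 0.514% to 0.591% of them. Levels are given as RPKM, counts per kilobase of annotated exon normalised to library size with TMM scaling factors, so that genes of different length can be compared. Marker genes went against the labelled age. Transcripts typical of a mature brain were abundant, with Mbp (myelin) at 284 to 425 RPKM, Mobp (myelin) at 132 to 207 and Pvalb (fast-spiking interneurons) at 26.5 to 49.3. Transcripts of newborn neurons and dividing cells were low, with Dcx at 3.2 to 5.04, Sox11 at 2.38 to 3.26 and Mki67 at 0.137 to 0.353. These age markers were chosen after values had been seen, and the levels below are those of these libraries, whatever the age of the animals. The libraries also differed in regional transcripts. The summed level of 14 pituitary genes was 23.8 RPKM in wild-type female 2 and 10.002 in Setd2SRI/wt female 1, against 1.94 to 3.35 in the other 5, and that of 13 hypothalamic genes was 355 in wild-type female 2 against 33.3 to 99.4 elsewhere. Wild-type male 1 had the lowest choroid plexus sum, 146 RPKM against 467 to 743, and the highest hindbrain sum, 14.6 against 1.73 to 4.44. Most of the choroid plexus sum came from the gene Ttr in every library.

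Most of the channel genes were expressed. Of the 92, 67 (72.8%) reached a mean of 1 RPKM, compared with 55.4% of protein-coding genes, and 31 (33.7%) reached 10 RPKM, compared with 20.9%. The 10 highest, among them Kcnab2, Kcnj10, Kcnk1, Kcnj4 and Kcnj9, made up 38.8% of the summed RPKM of all 92. At the low end 11 genes had means under 0.1 RPKM, and Kcnj1, the channel of the kidney tubule, had no count in any library. Among genes at 1 RPKM or more the coefficient of variation over the 7 libraries had a median of 16.2%, against 11.6% for protein-coding genes, and ran from 4.32% for Kcnd2 to 52.5% for Kcnj13. Exons of 28 of the genes overlap exons of another gene, on the same strand for Kcnab2 and Kcnk4. The strand setting of the counting was not given in the sources used here, so these counts are uncertain by the reads that such neighbours may share.

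**Figure D1:**
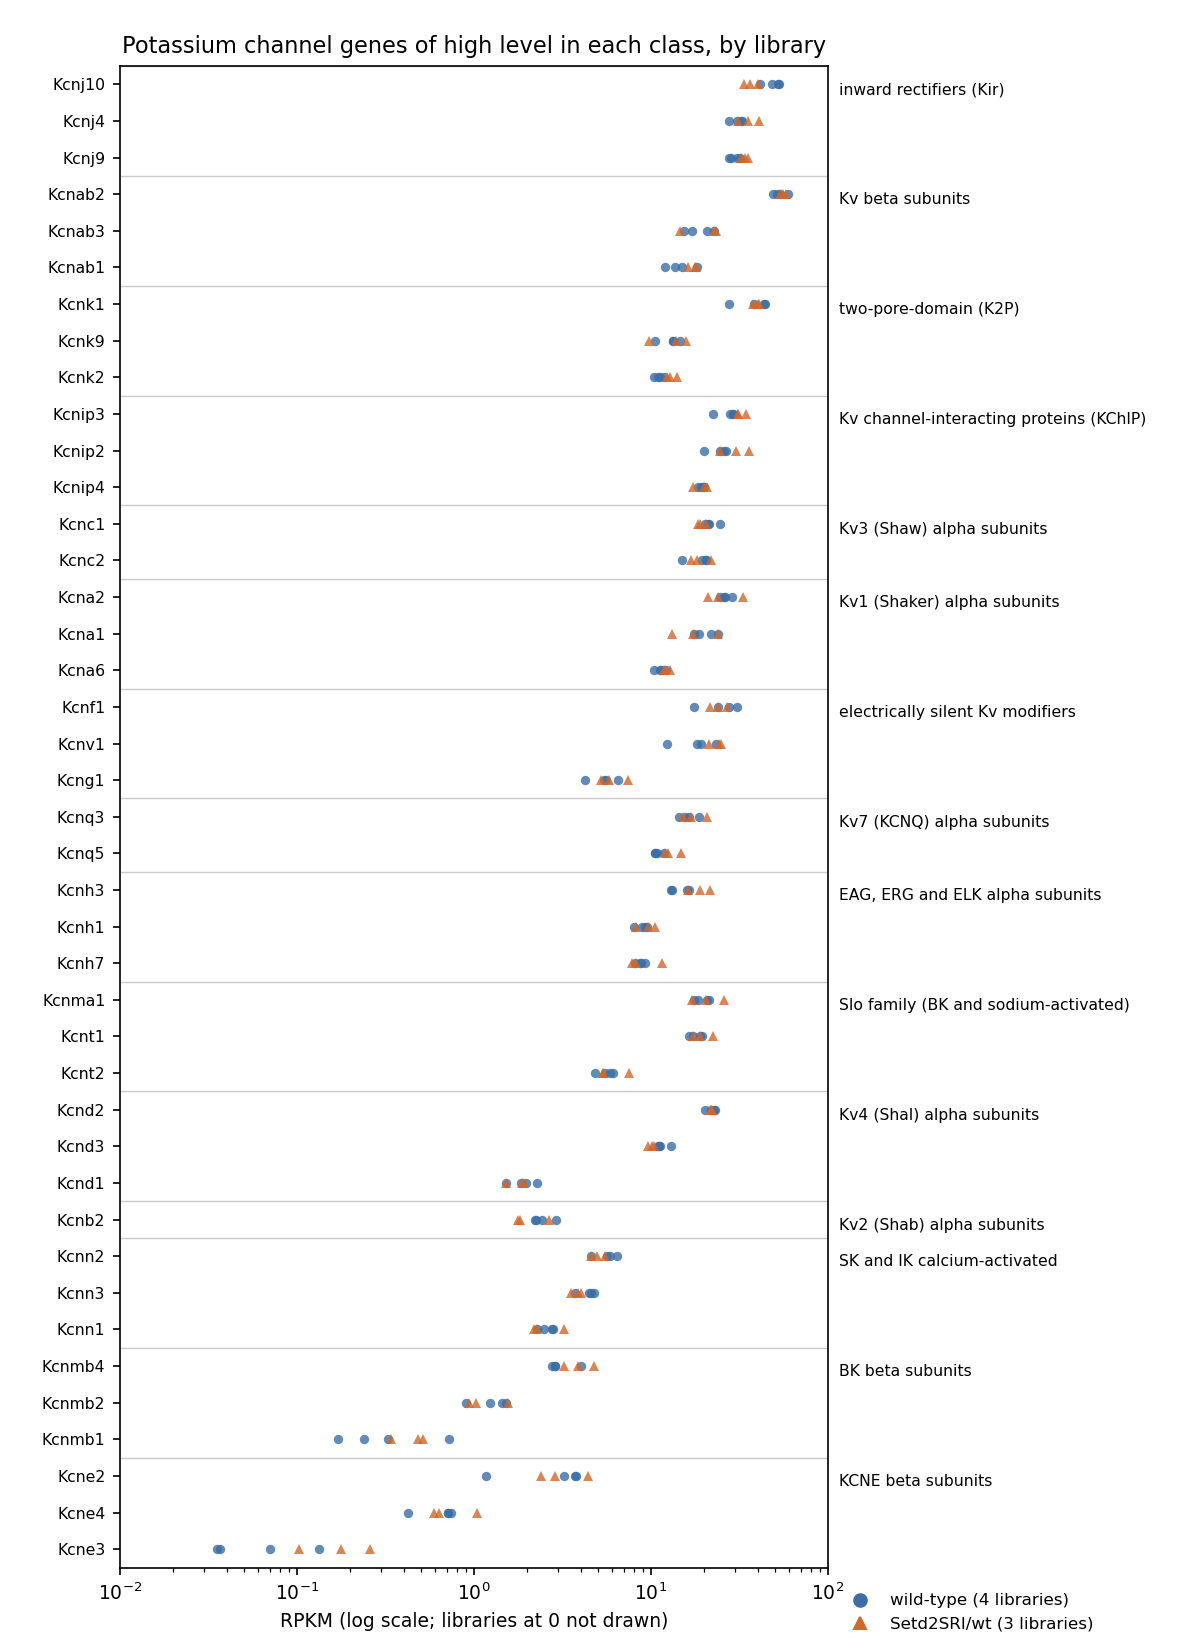
RPKM (log axis) of up to 3 genes of high level of each channel class in each library, circles for the 4 wild-type and triangles for the 3 Setd2SRI/wt libraries. Kcnab2 had the highest mean, with libraries at 49.1 to 59.2 RPKM, and the KCNE and BK beta classes had the lowest summed levels.

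Inward rectifiers held the largest share of the summed channel RPKM, 18.9% on average, with 154 to 171 RPKM per library over 15 genes. Kcnj10 (Kir4.1), the potassium-buffering channel of astrocytes and oligodendrocytes, led the class at a mean of 43.5 RPKM. Its usual partner in heteromeric channels, Kcnj16 (Kir5.1), was at 6.05 to 10.4. Kcnj4 (Kir2.3), a classical strong rectifier, averaged 32.9 RPKM, against 4.51 for Kcnj2 (Kir2.1) and 4.14 for Kcnj12 (Kir2.2). Of the G-protein-gated subunits, which open when inhibitory receptors release G-protein beta-gamma, Kcnj9 (GIRK3) averaged 31.4, Kcnj3 (GIRK1) 22.6, Kcnj6 (GIRK2) 2.92 and Kcnj5 (GIRK4, the atrial subunit) 0.521. The pore of the neuronal ATP-sensitive channel, Kcnj11, was at 7.38 to 8.82, and Kcnj8, its counterpart in pericytes and smooth muscle, at 0.654 to 1.34.

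Kcnj10 and Kcnj1 stand at opposite ends of this class, and the 250 bases upstream of their RefSeq start sites (GRCm38.p6, both on the + strand) are shown with each CG dinucleotide in capitals. That of Kcnj10 lies at chr1:172340960-172341209 and holds 17 CG, and that of Kcnj1 lies at chr9:32393735-32393984 and holds 2.
Kcnj10: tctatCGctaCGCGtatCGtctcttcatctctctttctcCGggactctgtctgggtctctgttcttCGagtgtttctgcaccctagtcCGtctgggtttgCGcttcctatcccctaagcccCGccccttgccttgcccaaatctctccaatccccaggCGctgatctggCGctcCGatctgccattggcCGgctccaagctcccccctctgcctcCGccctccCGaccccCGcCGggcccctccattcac
Kcnj1: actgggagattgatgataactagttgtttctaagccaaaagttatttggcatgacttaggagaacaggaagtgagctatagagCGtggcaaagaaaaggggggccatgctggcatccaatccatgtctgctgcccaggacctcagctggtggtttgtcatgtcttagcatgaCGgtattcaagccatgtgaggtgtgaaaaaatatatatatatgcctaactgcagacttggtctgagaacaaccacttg
Upstream sequence was listed for 67 of the 92 genes. Where several start sites were listed for a gene, the one with the most CG was counted, here and for other genes. The effect of this choice was not tested. The median number of CG was 2 for the 9 channel genes under 0.1 RPKM, 10 for the 11 from 0.1 to 1, 13 for the 26 from 1 to 10 and 15 for the 21 at 10 or more. Over other protein-coding genes the same medians were 2, 8, 16 and 19, so the medians of both sets rose with level. Single channel genes varied widely, from 0 to 17 CG under 0.1 RPKM and from 0 to 35 at 10 or more. Kcnk1, at a mean of 38.9 RPKM, had 0, and Kcnk15, under 0.1 RPKM, had 17. Kcnj10 has Kcnj9 as its neighbour on chromosome 1, 11892 bp away on the opposite strand, and both were among the 10 highest channel genes. Kcnj1 and Kcnj5 are neighbours on chromosome 9, 28143 bp apart, and both had means under 1 RPKM. Other neighbouring channel genes differed in level, such as Kcna2 and Kcna10, 68051 bp apart on chromosome 3, with means of 26.2 and 0.0509.

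K2P channels carry background leak current. Kcnk1 (TWIK-1) was highest of the 14 at a mean of 38.9 RPKM, followed by the acid-sensitive Kcnk9 (TASK-3) at 13.0 and the mechanically and lipid-gated Kcnk2 (TREK-1) at 11.97. Another TASK subunit, Kcnk3, averaged 5.12. Kcnk15, Kcnk16 and Kcnk18 were under 0.1 RPKM.

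Among voltage-gated alpha subunits, Kv3 and Kv1 genes had the highest summed levels, at 66.7 to 86.8 and 61.1 to 83.2 RPKM. Of the Kv3 genes, which allow fast repetitive firing, Kcnc1, Kcnc2 and Kcnc4 had means of 20.7, 18.9 and 16.0. The Kv1 genes were unequal. The axonal subunits Kcna2 and Kcna1 averaged 26.2 and 19.4, Kcna6 11.7, Kcna4 6.88, Kcna3 4.81 and Kcna5 3.48, whereas Kcna10 and Kcna7 were under 0.1. In the Kv4 class, which carries dendritic A-type current, Kcnd2 at 21.9 exceeded Kcnd3 at 10.9 and Kcnd1 at 1.84. The 7 libraries of each of these genes lay above all 7 of the next. Kcnb2, of the Kv2 delayed rectifiers, averaged 2.29.

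The M-current genes Kcnq3 and Kcnq5 averaged 16.8 and 11.9 RPKM, and the cardiac and inner-ear gene Kcnq1 0.185. Kcnh3, an ELK-type gene of forebrain neurons, averaged 16.5, ahead of Kcnh1 (EAG1) at 9.16, Kcnh7 (ERG3) at 8.92 and Kcnh2 (ERG1) at 8.32. Electrically silent subunits, which form no channel alone and modify Kv2 channels, were led by Kcnf1 at 24.6 and Kcnv1 at 20.5, with Kcng1 next at 5.75. The photoreceptor subunit Kcnv2 averaged 0.0251.

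The BK alpha subunit Kcnma1 averaged 20.2 RPKM and the sodium-activated channels Kcnt1 and Kcnt2 18.7 and 5.78. Of the BK beta subunits, Kcnmb4, known as the neuronal one, averaged 3.47, ahead of Kcnmb2 at 1.23 and the smooth-muscle subunit Kcnmb1 at 0.398. The SK genes Kcnn2, Kcnn3 and Kcnn1, which carry afterhyperpolarization current, averaged 5.36, 4.14 and 2.57, and Kcnn4, the channel of blood cells and microglia, 0.0656.

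Accessory subunits of Kv channels were among the highest genes. Kcnab2, a beta subunit of Kv1 channels, ranged from 49.1 to 59.2 RPKM, and Kcnab3 and Kcnab1 averaged 19.5 and 15.9. The calcium-binding KChIP genes Kcnip3, Kcnip2 and Kcnip4, partners of Kv4 channels, averaged 29.3, 26.8 and 19.3, and Kcnip1 5.43. Of the KCNE genes only Kcne2 had a mean above 1 RPKM, with libraries at 1.17 to 4.43.

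The genotype comparison asked which channel genes differed in Setd2SRI/wt brains. None of the 79 channel genes with enough counts to test passed an adjusted p of 0.05 by edgeR's quasi-likelihood test with Benjamini-Hochberg adjustment over all 17260 tested genes, of which 0.0174% passed. At an unadjusted p under 0.05 there were 17, where all genes gave 8.95%. Of these, 10 were higher and 7 lower in Setd2SRI/wt, 12.7% and 8.86% of those tested, against 3.84% and 5.11% of all genes. These counts moved with single libraries. Without wild-type female 2 there were 4 higher and 6 lower channel genes, where all genes gave 4.08% and 3.77%. Without wild-type male 2 there were 5 and 6, against 2.81% and 4.28% of all genes. Without the Setd2SRI/wt male there were 6 and 5, against 2.2% and 3.12%. Without Setd2SRI/wt female 2 there were 8 and 12, against 5.11% and 6.7%. Without wild-type female 1 there were 12 and 7, against 4.27% and 5.97%. DESeq2 called 2 channel genes, Kcnh3 and Kcnj10, and 0.371% of all genes, and limma-voom called 0 and 0.00579%. The values of the 4 wild-type and 3 Setd2SRI/wt libraries did not overlap for 13 channel genes (16.5%, against 7.91% of all genes). These were 5 higher and 8 lower genes, 6.33% and 10.1% of the channel genes, against 3.83% and 4.08% of all genes. The median log2 fold change of the 79 genes was 0.019, beside 0.0066 for all genes. It was positive in 42 genes, or 53.2% against 51.4% of all genes, and negative in 37. In bulk tissue, fewer cells of a type and less RNA per cell cannot be told apart.

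**Figure D2:**
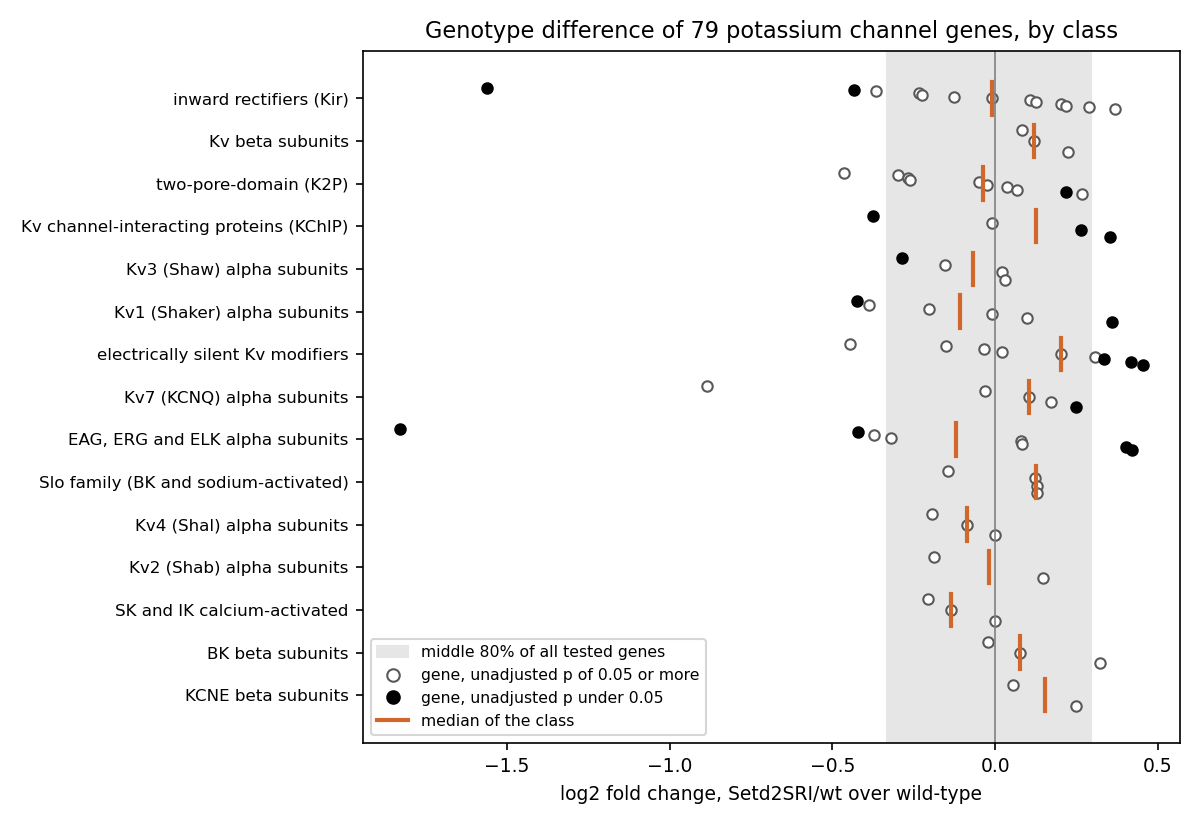
Log2 fold change of Setd2SRI/wt over wild-type for the 79 tested channel genes by class, filled where the unadjusted p was under 0.05, with the class median as a line and the middle 80% of all tested genes shaded. Genes lay on both sides of 0, and Kcnh8, at -1.83, and Kcnj5, at -1.56, lay farthest out.

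Among the inward rectifiers, Kcnj5 and Kcnj10 had the smallest p-values, and neither passed the threshold. Kcnj10 was at 53.2, 41.4, 48.0 and 51.9 RPKM in wild-type male 1, male 2, female 1 and female 2, and at 33.4, 40.1 and 36.4 in the Setd2SRI/wt male, female 1 and female 2. Every Setd2SRI/wt value was below every wild-type value, with 40.1 close to 41.4. On the log2 scale the difference was -0.43 ± 0.11 (SE), and edgeR's quasi-likelihood test gave an adjusted p of 0.192. The 9 astrocyte markers had a summed level of 702 to 825 RPKM in wild-type and 670 to 803 in Setd2SRI/wt libraries, and 2 of them had positive and 7 negative fold changes, with a median of -0.089. The 9 oligodendrocyte markers summed to 750 to 1028 RPKM in wild-type and 781 to 936 in Setd2SRI/wt libraries. Of these, 2 had positive and 7 negative fold changes, with a median of -0.043. The part of either cell type in the Kcnj10 difference was not tested.

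Kcnj5 was at 0.549, 0.508, 0.614 and 1.15 RPKM in the wild-type libraries, in the same order, and at 0.117, 0.491 and 0.219 in the Setd2SRI/wt libraries. The groups did not overlap, and the highest value belonged to wild-type female 2, the library with the most pituitary and hypothalamic transcripts. On 179 wild-type and 31 Setd2SRI/wt counts the log2 difference came to -1.56 ± 0.38, for which edgeR gave an adjusted p of 0.169. Without both libraries high in pituitary transcripts it was -1.69, and without wild-type female 1 it was -1.89 with an adjusted p of 0.035 by edgeR, past the threshold. Over the alternative settings it ranged from -2.12 to -1.23. Without wild-type female 2 the smallest adjusted p of any channel gene by edgeR was 0.313. The part of regional transcripts in the Kcnj5 difference was not tested beyond that.

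In the ether-a-go-go group, Kcnh3 had a higher mean in Setd2SRI/wt and Kcnh8 and Kcnh2 lower means, none past the adjusted threshold. Kcnh3 was at 16.3, 16.0, 13.0 and 13.2 RPKM in wild-type and at 21.5, 19.0 and 16.2 in Setd2SRI/wt libraries, so that the groups met at 16.2 and 16.3. It had the smallest p of the channel genes, at a log2 difference of 0.42 ± 0.10, and edgeR's adjusted p was 0.166. Kcnh8, an ELK-type gene of low level, was at 0.206 to 0.445 in wild-type and 0.0694 to 0.135 in Setd2SRI/wt libraries, without overlap, on 77 and 10 counts. The difference of -1.83 ± 0.51 had an adjusted p of 0.217 in edgeR. Kcnh2 averaged 9.34 ± 1.2 RPKM (SD, n = 4) and 6.96 ± 1.18 (SD, n = 3), and its groups overlapped.

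The KChIP genes went both ways. Kcnip2 was at 25.9, 26.6, 24.6 and 19.8 RPKM in wild-type and 35.8, 30.1 and 24.5 in Setd2SRI/wt libraries, with overlap and a log2 fold change of 0.35 ± 0.11. Kcnip3 was at 22.4 to 29.1 and 31.0 to 34.2, without overlap, and a log2 fold change of 0.26. Kcnip1, by contrast, was at 5.94, 5.56, 5.74 and 6.65 in wild-type and 4.43, 5.34 and 4.32 in Setd2SRI/wt libraries, also without overlap, and a log2 fold change of -0.37 ± 0.12. Their adjusted p-values by edgeR were 0.304, 0.482 and 0.313.

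**Figure D3:**
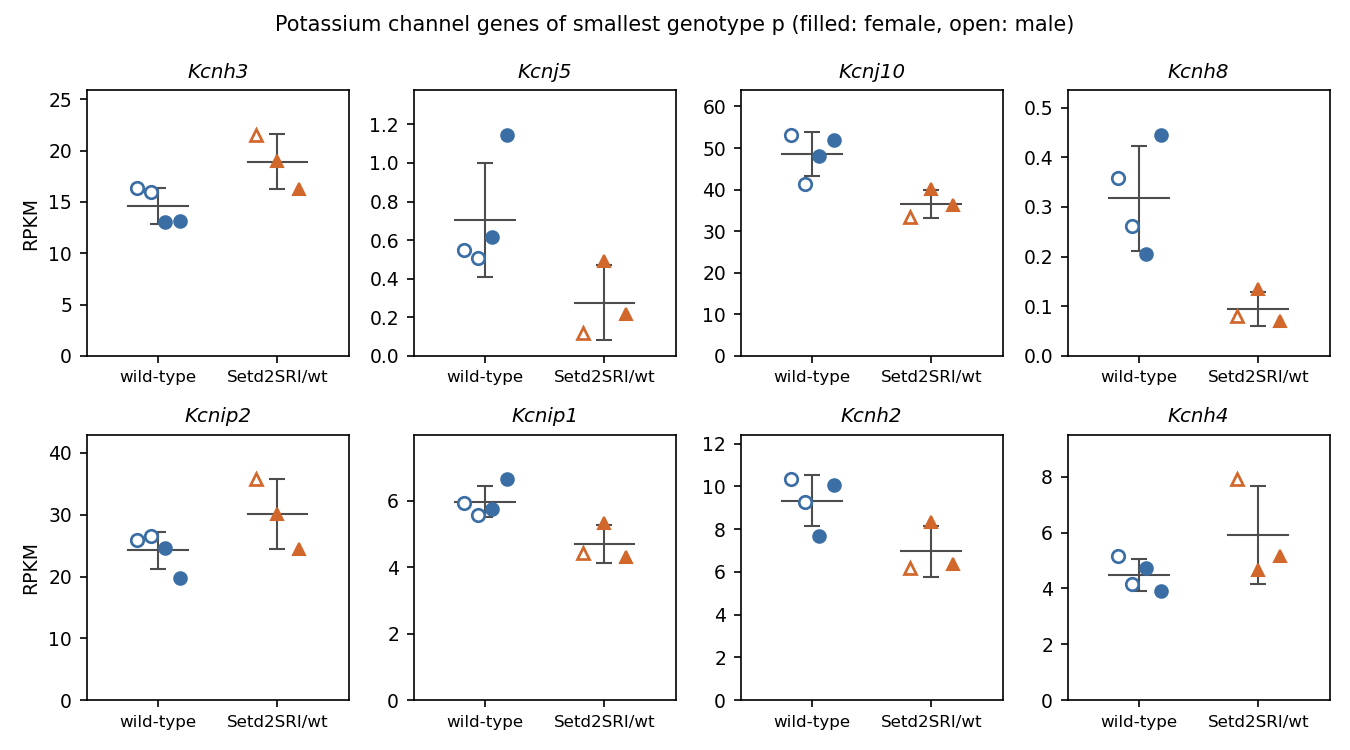
RPKM of the 8 channel genes of smallest genotype p in each library (filled, females and open, males), with the mean and SD of each genotype. Kcnj5, Kcnj10, Kcnh8 and Kcnip1 show no overlap between genotypes, while Kcnh3, Kcnip2, Kcnh2 and Kcnh4 overlap.

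Silent subunits had 6 positive and 3 negative fold changes with a median log2 of 0.20, where 51.4% of all genes were positive. They held 3 of the 10 genes that were higher at an unadjusted p under 0.05, a threshold that 3.84% of all genes passed in that direction. These were Kcnv1 at 0.42, Kcns3 at 0.45 and Kcns1 at 0.33. The rest of the 10 were Kcnh4 at 0.40, the A-type subunit Kcna4 at 0.36, Kcnq5 at 0.25 and Kcnk2 at 0.22, with Kcnh3, Kcnip2 and Kcnip3. Of these, the genotypes did not overlap for Kcnq5, Kcnip3, Kcns1 and Kcnk2. The 7 lower also included Kcna5 at -0.42. Genotypes also did not overlap, at an unadjusted p of 0.05 or more, for Kcnj9, at 27.8 to 31.9 RPKM in wild-type and 32.1 to 35.2 in Setd2SRI/wt libraries. The same held, with the Setd2SRI/wt values below, for Kcnd3 at 11.02 to 13.0 and 9.57 to 10.4, Kcnk3 at 4.94 to 6.52 and 4.23 to 4.93, Kcnk6 at 1.13 to 1.38 and 0.739 to 0.99, and Kcnq1 at 0.192 to 0.291 and 0.0895 to 0.135. The groups were closest for Kcnk3, which met at 4.93 and 4.94. Kcnh5, a gene of the EAG type, overlapped, at 4.04 to 5.04 and 2.39 to 4.62. The 9 cortical and hippocampal neuron markers all had positive fold changes, with a median of 0.36 and a summed level of 114 to 125 RPKM in Setd2SRI/wt against 80.2 to 102 in wild-type libraries, and the 8 tested monoamine neuron markers were all negative, with sums of 6.72 to 13.3 against 15.3 to 45.6. Of the other regional lists, striatal markers were positive in 9 of 9 tested genes, hypothalamic markers negative in 11 of 12, cerebellar markers in 8 of 9 and thalamic markers in 6 of 7. The part of these regional transcripts in the channel gene differences was not tested.

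A hand-picked list held 17 channel genes with a known human channel disorder, such as Kcnq3 and Kcna1, and was not a complete set of such genes. All 17 reached 1 RPKM, which holds for this list only, and none passed the adjusted threshold in edgeR's test. There were 10 positive and 7 negative fold changes, with a median of 0.08 on the log2 scale. The 3 with an unadjusted p under 0.05 were 1 higher and 2 lower, where all genes gave 8.95% in either direction.

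Between males and females, 0 of the 79 channel genes passed in edgeR's test, where 0.0463% of all genes did, and DESeq2 and limma-voom also called 0. None had sexes without overlap, against 4.9% of all genes. At an unadjusted p under 0.05 there were 8, or 10.1% against 4.72% of all genes. Of these, 4 were higher and 4 lower in males, where 384 and 430 of the 17260 tested genes were. Kcnh3, Kcnip2 and Kcnh4 were among the higher, at log2 male to female differences of 0.30, 0.30 and 0.36. Each was highest in the Setd2SRI/wt male. The lowest p belonged to Kcnj13 (Kir7.1), the apical channel of the choroid plexus, at a log2 male to female difference of -1.38 ± 0.37. In the order used above it was at 0.889, 2.44, 4.87 and 2.27 RPKM in wild-type and 1.73, 3.50 and 4.92 in Setd2SRI/wt libraries. Kcne2, also of choroid plexus epithelium, was at 1.17, 3.23, 3.75, 3.71, 2.38, 4.43 and 2.86, a difference of -0.86 ± 0.30. Both were lowest in wild-type male 1, where the choroid plexus marker Ttr was also lowest, at 139 RPKM against 454 to 723, and so was Folr1, at 0.765 against 1.75 to 2.54. Without that library the differences were -0.93 and -0.39. Of the exon bases of Kcnj13, 623 of 1270 overlap Gigyf2 on the opposite strand. Whether the genotype difference differed between sexes was tested with 1 Setd2SRI/wt male, and 0 of 79 genes passed in edgeR and DESeq2. At an unadjusted p under 0.05 there were 6, or 7.59% against 3.46% of all genes, namely Kcnj6, Kcna3, Kcnf1, Kcna1, Kcng3 and Kcnh5. The product term was negative in all 6. Over all 79 channel genes it was positive in 23, against 9041 of the 18269 genes in that fit. Of the 6, Kcna3 was at 1.93 RPKM in the Setd2SRI/wt male and at 4.15 to 6.61 in the other 6 libraries.

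**Figure D4:**
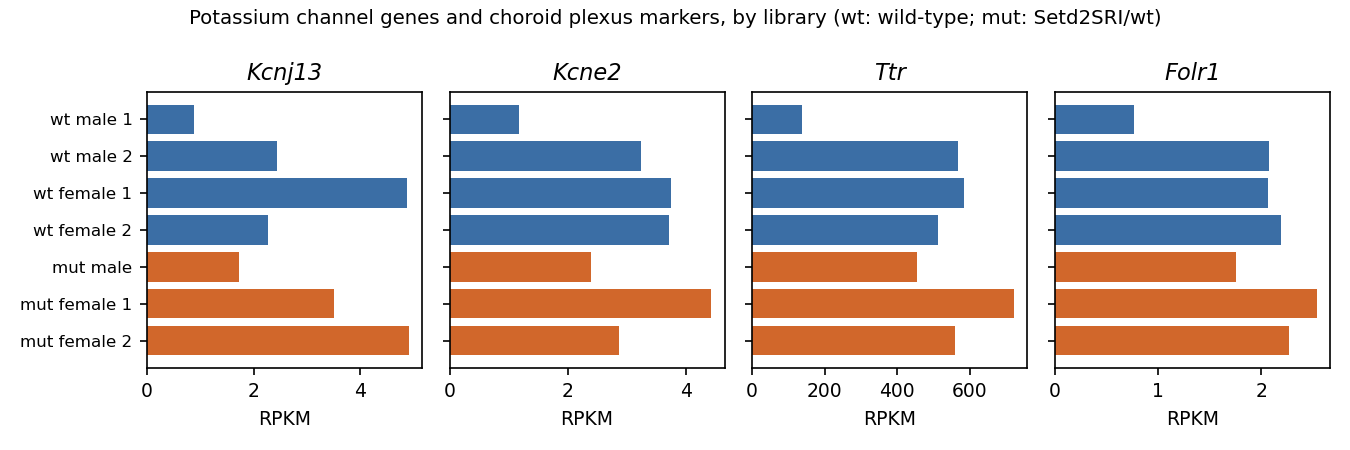
RPKM of Kcnj13, Kcne2 and the choroid plexus markers Ttr and Folr1 in each library. All 4 genes were lowest in wild-type male 1, at 0.889, 1.17, 139 and 0.765 RPKM.

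Genes that work with potassium channels were listed separately and comprised channel-binding proteins, ion pump subunits, chloride cotransporters and the hyperpolarization-activated HCN channels. Of 50 such genes 49 were tested, none passed the adjusted threshold in edgeR's test, and at an unadjusted p under 0.05 there were 2 higher and 2 lower, where all genes gave 3.84% and 5.11%. Their median log2 fold change was 0.043, with 27 positive and 22 negative. The smallest p was that of Hcn4, a slow pacemaker channel, at 2.48, 2.26, 2.00 and 2.66 RPKM in wild-type and 0.988, 1.55 and 1.06 in Setd2SRI/wt libraries. The groups did not overlap, and edgeR gave a log2 difference of -1.0 ± 0.19 at an adjusted p of 0.112. Hcn3 was also lower without overlap, at 3.89 to 5.28 against 3.23 to 3.88, and a log2 fold change of -0.44. Dlg4, the synaptic scaffold that clusters Kv1 channels, was at 43.3 to 47.5 in wild-type and 51.5 to 55.1 in Setd2SRI/wt libraries.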

How the data were processed

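Counts per gene were deposited by the authors as 1 table of raw counts. Per the labels' protocols, ribosome-depleted stranded total RNA libraries were sequenced as paired-end reads, and the submitters' processing notes name FastQC, Trim Galore, HISAT2, featureCounts and edgeR and the build mm10, without versions or settings. The table gave no gene length, so exon lengths were taken from GENCODE mouse release 21, whose identifiers and symbols match all 55536 genes, in place of the deposited length first planned.

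Genotype and sex were tested on the counts with edgeR 4.0.16 (R 4.3.3), using the quasi-likelihood test with genotype and sex as terms, edgeR's low-count filter, TMM factors and Benjamini-Hochberg adjustment at 0.05. The product of both terms was tested in a separate fit. The steps were tested on simulated data. Total counts were 4192021 to 16064644. Counts of the shallow libraries limit genes of low level most. Alternatives were DESeq2 1.42.0, limma-voom (limma 3.58.1), other scaling and filters, thinning, females only and leaving out libraries.

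Named genes were those past the threshold, the 10 of smallest p in each direction, up to 3 of highest level per class, 5 channels typical of a cell type, 3 per direction for sex, and up to 5 partner genes per direction. Others were added after their values were seen, to show a class or to name the genes behind a small count. Some genes that the rule names are not reported here. The members and lists were chosen with earlier results of these data known. The set without both libraries high in pituitary transcripts was also chosen after seeing the data.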

Additional observations from a re-analysis of the deposited data

Results flagged for a closer look

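In 6 of the 60 named channel genes, 1 of the 4 wild-type libraries stood far from the other 3 relative to their range. Chance gives such a gap in about 1 in 20 groups of normally distributed values. Some of the 60 genes were named by their p-values in the same libraries, so that rate is only a rough guide. Kcnmb4 was highest in wild-type female 1 at 4.005 RPKM, and Kcne4 was lowest in the same library at 0.423. Kcnip3 was lowest in wild-type female 2 at 22.4, and Kcnj5 was highest in that library at 1.15. Kcnd3 and Kcnk6 were highest in wild-type male 2, at 13.0 and 1.38.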

How the results depend on the processing

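No channel gene was called for genotype by edgeR as used above, nor with adjusted p under 0.1 or without both libraries high in pituitary transcripts. DESeq2 called 2 (Kcnh3 and Kcnj10, adjusted p 0.0438 each) and edgeR without a low-count filter 3, all lower (Kcnj5, Kcnj10 and Kcnh8). Leaving out each library gave 0 to 1, the 1 being Kcnj5 without wild-type female 1. Over all genes 3 were called, against 64 by DESeq2, 1 by limma-voom, 1 with a mean CPM of at least 1, 331 without a filter, 0 without a sex term, 1 with total counts, 1 in females only and 57 without the libraries high in pituitary transcripts. Leaving out each library gave 0 to 110, reaching 110 when wild-type female 1 and 11 when Setd2SRI/wt female 1 was dropped, and 0 when wild-type female 2 or male 2 was. With the replicate block, females only gave 80 genes and 0 channel genes. Whether replicate numbers pair animals was not known. Deviations of same-numbered females correlated at -0.068, which cannot decide it, since each genotype gave only 1 difference. Pituitary transcripts also differed between these females, being high in wild-type female 2 and Setd2SRI/wt female 1. For sex, no filter called 1 channel gene, Kcnj13. The median log2 fold change of the channel genes, 0.019, was 0.078 in females only and -0.031 to 0.079 when leaving out each library. With total counts the split at an unadjusted p under 0.05 was 7 higher and 11 lower. Over all 17260 tested genes the same scaling gave 502 higher and 1103 lower, with a median log2 fold change of -0.026. Of 23 genes followed, 22 kept their sign throughout, and Kcnj13 ranged from -0.026 (without wild-type female 2) to 0.73 (without wild-type female 1) for genotype. The cause of these changes was not tested. Shallow libraries and 1 Setd2SRI/wt male limit what could be detected.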
